A study of Mus musculus with 12 samples.

Results

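Among the genes that were at or near 0 counts in control cardiac fibroblasts and were counted in every library of fibroblasts given *Sox17* and *Erg* are 5 that are not known as markers of endothelial cells: *Prdm1*, *Npffr1*, *Tmem28*, *D430041D05Rik* and *Pmch*. They are 5 of the 35727 genes in the count table. They were chosen by symbol from these same data, because their counts were near 0 in the control libraries and high in the *Sox17*-*Erg* libraries, so the difference between *Sox17*-*Erg* and control is given below as a description with no test. The choice did not ask how their levels moved from Day 3 to Day 7 and 4 weeks within the *Sox17*-*Erg* libraries. That change was tested. The choice did use the levels of those same libraries, and earlier results of these data were known. The tested time changes are thus not fully independent of the choice. All 5 passed the filter on low counts. They could do so through the *Sox17*-*Erg* libraries alone. The choice had no fixed limit on counts: the highest count of any of the 5 in a control library was 7, and the lowest in a *Sox17*-*Erg* library was 27.

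Fibroblasts came from pooled hearts of neonatal mice and were grown in EGM2 medium. The study's isolation selects THY1-positive cells on a magnetic column, after a depletion of PECAM1-positive cells that its methods make optional. In the section that holds the bulk RNAseq, the paper says that this depletion was added to limit the possible impact of contaminating endothelial cells. *Sox17*-*Erg* cultures, labelled induced endothelial cells (iECs), were infected with pMX retroviruses carrying *Sox17* and *Erg*, and control cultures, labelled fibroblasts, are named pMX after the retroviral backbone. Bulk RNAseq of both kinds of culture covered 3 time points, Day 3, Day 7 and 4 weeks, in 6 groups of 2 libraries, 12 in all. The study's methods name C57BL/6J mice and a cross of Tcf21-CreERT2 with Rosa26-tdTomato as sources of its cells, and the labels do not say which gave these libraries. They name no further agent and do not say whether the 2 libraries of a group came from separate isolations, so the p-values measure the spread between these libraries, which may be technical. A retroviral culture holds infected and uninfected cells together, and in such bulk RNA a change in the number of expressing cells cannot be told apart from a change in RNA per expressing cell. Library totals ran from 19011635 to 41240449 counts. *Sox17* was at most 9 counts in a control library and between 432 and 1036 CPM (normalized counts scaled to the library total) in the *Sox17*-*Erg* libraries. *Erg* was between 17.1 and 65.2 CPM there, and reads of the viral copies cannot be separated from those of the resident genes. The label of endothelial-like cells was checked with 10 endothelial markers, whose summed level was 314 to 774 CPM in the *Sox17*-*Erg* libraries and 20.9 to 61.4 CPM in control, with *Cdh5*, the gene of VE-cadherin, as a large part of it. Of the 9 tested, edgeR called 4 higher on Day 3, 5 on Day 7 and 7 after 4 weeks, where 7.19%, 9.48% and 11.9% of all tested genes were called higher. *Esam* passed at no time point, and *Vwf*, *Egfl7* and *Tie1* passed at 4 weeks but not before. *Tek* passed at Day 3 (adjusted p = 0.0024) and Day 7 (0.0089) but not at 4 weeks (0.07). *Cldn5*, a tight junction gene of endothelium, had at most 10 counts in any library. Control replicate 2 held 309 and 201 counts of *Cdh5* and 49 and 34 of *Erg* at Day 3 and Day 7, where the 4 other control libraries held 6 to 25 and 2 to 4.

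Apart from *D430041D05Rik*, the 5 genes belong to pathways that are best known outside the vessel wall. *Prdm1* encodes Blimp-1, a zinc finger repressor with a PR domain that drives plasma cell differentiation, helps specify primordial germ cells and recruits histone deacetylases, methyltransferases and Groucho corepressors to its targets. *Npffr1* encodes a G protein-coupled receptor for RFamide neuropeptides, short peptides that are cut from the precursors Npff and Npvf. *Tmem28*, also named *Fam155b*, is related to *Fam155a*, whose product is a subunit of the sodium leak channel NALCN together with UNC79 and UNC80, and that channel sets resting excitability in neurons. *Pmch* encodes the precursor of melanin-concentrating hormone (MCH), a hypothalamic peptide of feeding and sleep that signals through the receptor Mchr1. *D430041D05Rik* encodes a membrane protein of the family of *D630045J12Rik*, and little is known of its function.

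The genes lie on 3 chromosomes of the mouse genome (GRCm38, GENCODE M21). *Prdm1*, *Npffr1* and *Pmch* are on chromosome 10, at 44437177 to 44528501 on the minus strand, at 61595492 to 61628565 on the plus strand and at 88091072 to 88092375 on the plus strand. *Tmem28* is on chromosome X at 99821021 to 99848790 on the plus strand, and *D430041D05Rik* is on chromosome 2 at 104143073 to 104411013 on the minus strand. All are protein-coding. Their longest transcripts differ widely, from 749 bases for *Pmch* to 13015 bases for *D430041D05Rik*, with 5281 bases for *Prdm1*, 3479 for *Npffr1* and 3909 for *Tmem28*.

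The promoters of all 5 genes are shown because the 5 genes were chosen for their counts after addition of a SOX and an ETS protein. They are RefSeq windows (GRCm38.p6) of 300 bases, from 250 bases before to 50 bases after a start site, written 5′ to 3′ on the strand of the gene. Capitals mark ACAAT or its reverse complement ATTGT, a core of SOX sites, and AGGAAG or CTTCCT, an ETS core with flanks. Other forms of SOX sites were not searched, so a window without these letters may still hold one. RefSeq start sites differ from the outermost GENCODE ones: the windows of *Prdm1* and *D430041D05Rik* lie inside the annotated gene spans, those of *Npffr1* and *Tmem28* lie wholly before them, and that of *Pmch* crosses its annotated start. The windows are chr10:44458699-44458998 for *Prdm1*, chr10:61595045-61595344 for *Npffr1*, chrX:99819914-99820213 for *Tmem28*, chr2:104410285-104410584 for *D430041D05Rik* and chr10:88090822-88091121 for *Pmch*.
Prdm1: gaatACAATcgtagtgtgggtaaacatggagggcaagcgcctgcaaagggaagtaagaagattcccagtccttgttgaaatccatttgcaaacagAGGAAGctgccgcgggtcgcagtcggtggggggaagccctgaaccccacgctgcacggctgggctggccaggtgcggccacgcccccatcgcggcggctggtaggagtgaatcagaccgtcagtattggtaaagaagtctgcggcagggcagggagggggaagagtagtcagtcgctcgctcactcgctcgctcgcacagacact
Npffr1: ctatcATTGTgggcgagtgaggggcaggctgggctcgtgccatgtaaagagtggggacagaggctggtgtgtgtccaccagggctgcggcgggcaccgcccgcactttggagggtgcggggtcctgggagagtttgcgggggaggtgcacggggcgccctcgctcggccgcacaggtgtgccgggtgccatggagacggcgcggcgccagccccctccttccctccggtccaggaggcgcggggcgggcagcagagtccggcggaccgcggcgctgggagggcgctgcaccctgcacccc
Tmem28: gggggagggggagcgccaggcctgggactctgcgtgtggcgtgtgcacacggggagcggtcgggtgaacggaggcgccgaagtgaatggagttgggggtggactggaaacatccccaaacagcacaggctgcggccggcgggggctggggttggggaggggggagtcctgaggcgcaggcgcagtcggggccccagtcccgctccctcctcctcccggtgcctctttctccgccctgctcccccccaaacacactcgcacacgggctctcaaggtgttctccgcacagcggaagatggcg
D430041D05Rik: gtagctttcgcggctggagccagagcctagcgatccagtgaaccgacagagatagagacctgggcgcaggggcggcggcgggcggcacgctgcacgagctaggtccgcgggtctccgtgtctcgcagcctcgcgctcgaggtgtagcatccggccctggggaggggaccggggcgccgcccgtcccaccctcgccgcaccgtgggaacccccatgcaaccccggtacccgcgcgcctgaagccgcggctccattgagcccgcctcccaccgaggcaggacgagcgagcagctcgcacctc
Pmch: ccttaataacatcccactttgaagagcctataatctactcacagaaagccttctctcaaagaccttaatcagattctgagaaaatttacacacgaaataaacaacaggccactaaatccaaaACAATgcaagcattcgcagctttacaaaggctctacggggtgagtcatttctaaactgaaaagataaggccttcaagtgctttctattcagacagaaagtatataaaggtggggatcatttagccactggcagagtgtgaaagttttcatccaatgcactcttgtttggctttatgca

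The letters ACAAT or ATTGT were present once in the windows of *Prdm1*, *Npffr1* and *Pmch* and were not in those of *Tmem28* and *D430041D05Rik*, a second RefSeq window of the latter included. They occur in 31.02% of 32851 RefSeq promoters of this length. AGGAAG or CTTCCT was present in the *Prdm1* window only, and occurs in 35.4% of all promoters. The bare ETS core GGAA, or TTCC, occurs in 96.0% of all promoters. It was found 5 times in the window of *Prdm1*, once of these inside AGGAAG, 2 times in that of *Tmem28*, once in that of *Npffr1*, once in that of *D430041D05Rik* (3 times in its other RefSeq window), and not in that of *Pmch*. The windows also differed in base composition. *Pmch* had a GC content of 39.0%, against 59.7% to 73.3% in the other genes and a median of 52.7% over all promoters. No one of these motifs was shared by all 5 windows, and a match in a window of this length is a description of letters and not a bound site.

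*Prdm1* was at the limit of detection in control cells and rose from Day 3 to 4 weeks in *Sox17*-*Erg* cells. In order of time, the control libraries held 3 and 1, 4 and 2, and 0 and 0 counts. The *Sox17*-*Erg* libraries held 156 and 99 counts on Day 3, 943 and 492 on Day 7 and 1337 and 1262 after 4 weeks. Every *Sox17*-*Erg* library was above every control library, which is what the choice asked for. In normalized values, *Prdm1* was at 7.89 and 4.27 CPM on Day 3, went to 26.0 and 21.6 CPM on Day 7 and ended with 47.3 and 46.7 CPM. No library of an earlier time point reached a library of a later one. Against control the summed counts gave a ratio of 72.9 at Day 3 (95% counting interval 28.1 to 269), 206 at Day 7 (94.6 to 563) and at least 506-fold at 4 weeks, where the bound sets control at 3 counts per library, the limit that a count of 0 allows. These intervals and bounds cover counting error only, and each bound takes the mean of the 2 *Sox17*-*Erg* libraries.

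*Npffr1* had the lowest start and the steepest climb. Control libraries held 5 and 7 counts at Day 3 and 0 counts in the 4 later libraries. The *Sox17*-*Erg* libraries held 27 and 30 counts on Day 3, 429 and 196 on Day 7 and 959 and 1519 after 4 weeks. In CPM these were 1.37 and 1.29, then 11.8 and 8.61, then 33.9 and 56.3. At Day 3 the receptor was thus only 5.43 times its control level (2.88 to 11.1), while the bound for Day 7 was at least 86.7-fold higher and that for 4 weeks at least 485-fold higher. Its counts of 7 in control and 27 in *Sox17*-*Erg* are the limits named above, so *Npffr1* sat at the edge of the choice on both sides.

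*D430041D05Rik* followed the same course. The 6 control libraries held 0, 0, 1, 0, 1 and 0 counts, in order of time. The *Sox17*-*Erg* libraries held 150 and 103 counts on Day 3, 646 and 509 on Day 7 and 2246 and 1484 after 4 weeks, or 7.59 and 4.44, 17.8 and 22.4, and 79.5 and 55.0 CPM. Its level at 4 weeks, 67.2 ± 17.3 CPM (SD, n = 2), was the highest CPM of the 5 genes, on the longest transcript. With single counts in control, its ratios of 996 at Day 7 (178 to 39386) and 4354 at 4 weeks (781 to 172029) have intervals so wide that only their lower ends are informative. At Day 3, with 0 control counts, it was at least 49.2-fold higher.

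*Tmem28* went the other way. Its *Sox17*-*Erg* libraries held 252 and 216 counts at Day 3, 475 and 228 at Day 7, and only 55 and 30 at 4 weeks, and the control libraries held 0 counts at Day 3 and Day 7 and 2 and 1 at 4 weeks. In CPM it was at 12.8 and 9.31, then 13.1 and 10.02, then 1.95 and 1.11. The libraries of Day 3 and Day 7 overlapped, and both libraries of 4 weeks were below all 4 of them. Against control the bounds for Day 3 and Day 7 were at least 90.3-fold and at least 98.1-fold higher. By 4 weeks the ratio was 33.1 (10.9 to 164).

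*Pmch* reached its later level in 1 of the 2 libraries of Day 3. None of the 6 control libraries held a count of this neuropeptide precursor, which allows at most 3 counts in each. The *Sox17*-*Erg* libraries held 376 and 74 counts on Day 3, 422 and 406 on Day 7 and 431 and 399 after 4 weeks, which is 19.03 and 3.19 CPM, 11.6 and 17.8 CPM, and 15.3 and 14.8 CPM. The Day 3 replicates differed widely, at 11.1 ± 11.2 CPM (SD, n = 2), and replicate 1 held the highest and replicate 2 the lowest level of the 6 libraries. *Sox17*, *Erg* and *Cdh5* were also lower in Day 3 replicate 2, at 432 against 781, 25.9 against 46.6 and 148 against 208 CPM. The endothelial marker *Emcn* was alike in the 2 libraries, at a mean of 67.8 CPM (SD 0.07). The part of the added factors or of these markers in the *Pmch* difference was not tested. Against control the bounds for *Pmch* were at least 90.9-fold, 125-fold and 161-fold higher, in order of time. These bounds take the mean of the 2 *Sox17*-*Erg* libraries, and Day 3 replicate 2 alone was below the first of them.

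**Figure D1:**
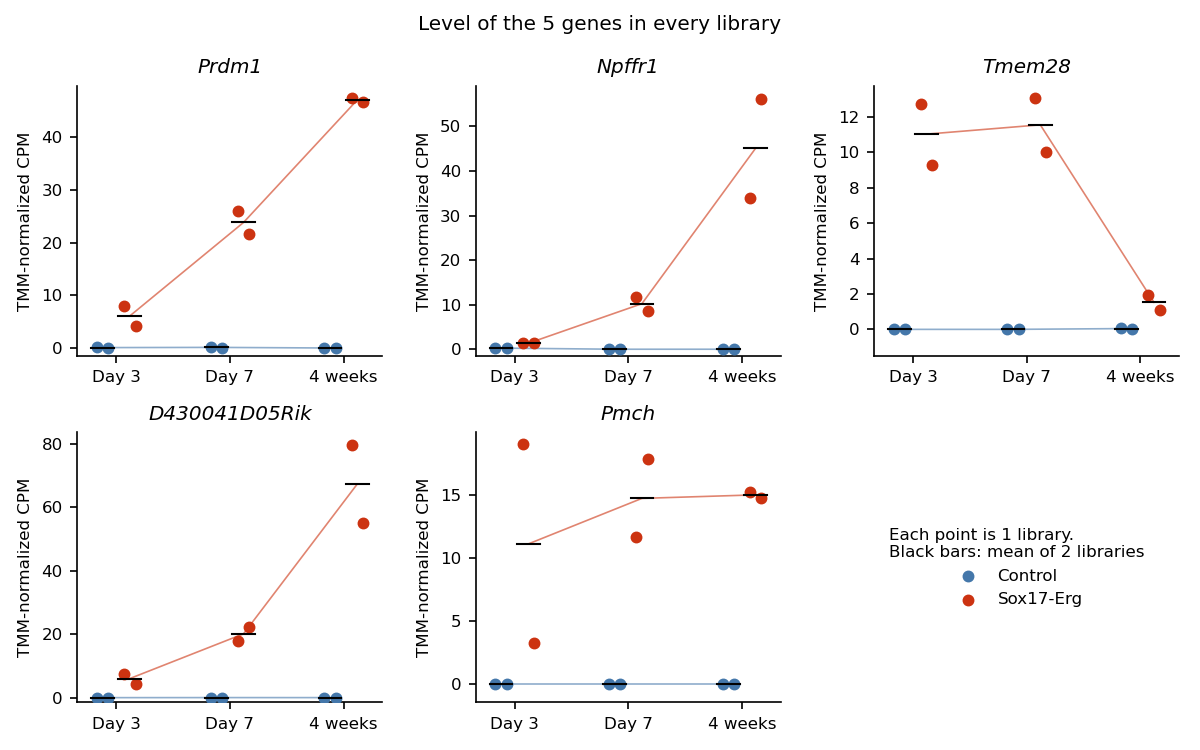
Level of each gene in TMM-normalized CPM (linear axes, which differ between panels) at Day 3, Day 7 and 4 weeks, with control libraries in blue, *Sox17*-*Erg* libraries in red and the mean of 2 libraries as a black bar. *Prdm1*, *Npffr1* and *D430041D05Rik* climb to 47.0, 45.1 and 67.2 CPM at 4 weeks, *Tmem28* drops to 1.53 CPM and *Pmch* is spread from 3.19 to 19.03 CPM at Day 3.

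Compared per kilobase of the longest transcript, the shortest gene ranked first. At 4 weeks *Pmch* was at 20.4 and 19.7 CPM per kilobase, *Npffr1* at 9.76 and 16.2, *Prdm1* at 8.96 and 8.85, *D430041D05Rik* at 6.11 and 4.22, and *Tmem28* at 0.498 and 0.284. No neighbours in this order overlapped, though *Npffr1* replicate 1 stood closer to *Prdm1* than to its own replicate. At Day 3 the order was different. *Pmch*, at 25.4 and 4.26, was followed by *Tmem28* at 3.26 and 2.38, *Prdm1* at 1.49 and 0.808, and *D430041D05Rik* and *Npffr1*, whose libraries at 0.341 to 0.583 and 0.372 to 0.393 overlapped. Set against all 15506 tested genes on this scale, *Npffr1* moved from above 17.6% to 17.8% of them at Day 3 to above 68.1% to 78.8% at 4 weeks. *Tmem28* moved from above 38.8% to 44.3% of them down to 13.6% to 19.9%.

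The change with time within the *Sox17*-*Erg* libraries was tested with edgeR's quasi-likelihood test over all 15506 genes, with Benjamini-Hochberg adjustment. From Day 3 to 4 weeks, 3 of the 5 genes rose and 1 fell, where 15.1% of all tested genes rose and 15.6% fell. *Npffr1* rose by a log2 fold change of 5.08 (SE 0.35, adjusted p = 0.00035), or 33.8-fold, rank 110 among the rises of all tested genes. *D430041D05Rik* rose by 3.49 (SE 0.33, adjusted p = 0.00054), or 11.2-fold, and *Prdm1* by 2.96 (SE 0.29, adjusted p = 0.00061), or 7.76-fold. These were ranks 239 and 343 among the rises. *Tmem28* fell with a log2 fold change of -2.84 (SE 0.34, adjusted p = 0.0018), rank 242 among the falls. These 4 calls held under every alternative fit and with each of the 12 libraries left out. *Pmch* had a log2 fold change of 0.44 (SE 0.72, adjusted p = 0.69) and did not pass. That value rested on the discordant Day 3 pair. It was 2.29 (adjusted p = 0.024) without Day 3 replicate 1, whose lone partner is then assumed to vary like the other groups, and -0.34 (adjusted p = 0.5) without Day 3 replicate 2.

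The 2 steps of this course differed between genes. From Day 3 to Day 7, 3 of the 5 genes rose and none fell, against 2.04% and 1.38% of all tested genes. *Npffr1* rose by 2.94 (SE 0.34, adjusted p = 0.015), *Prdm1* by 1.98 (SE 0.28, adjusted p = 0.019) and *D430041D05Rik* by 1.74 (SE 0.31, adjusted p = 0.033). *Tmem28*, at 0.07 (SE 0.31, adjusted p = 0.92), and *Pmch*, at 0.41 (SE 0.72, adjusted p = 0.78), did not pass. From Day 7 to 4 weeks 2 genes rose and 1 fell, against 1.15% and 0.671% of all tested genes. *Npffr1* rose by a further 2.14 (SE 0.30, adjusted p = 0.023) and *D430041D05Rik* by 1.74 (SE 0.30, adjusted p = 0.034), while *Tmem28* fell, at -2.91 (SE 0.34, adjusted p = 0.015). *Prdm1* was at 0.98 (SE 0.27, adjusted p = 0.11) and *Pmch* at 0.03 (SE 0.72, adjusted p = 0.99).

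The calls between neighbouring time points depended on single *Sox17*-*Erg* libraries. For Day 7 against Day 3, the *Prdm1* call was lost without Day 3 replicate 2 (1.60, adjusted p = 0.072) or Day 7 replicate 2 (2.14, adjusted p = 0.057), and that of *Npffr1* without Day 3 replicate 1 (3.02, adjusted p = 0.10) or replicate 2 (2.90, adjusted p = 0.08). That of *D430041D05Rik* was lost without either Day 3 library (2.22 and 1.40, adjusted p = 0.10 and 0.12), Day 7 replicate 2 (1.61, adjusted p = 0.15) or either 4-week library (1.78 and 1.76, both adjusted p = 0.051). For 4 weeks against Day 7, *Npffr1* and *D430041D05Rik* lost their calls without any 1 of the 4 libraries compared, with log2 fold changes from 1.71 to 2.47 and from 1.46 to 1.96. *Tmem28* lost its call without Day 7 replicate 1 (-2.71, adjusted p = 0.064), 4 weeks replicate 1 (-3.37, adjusted p = 0.055) or 4 weeks replicate 2 (-2.59, adjusted p = 0.062). The direction held in each of these fits.

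**Figure D2:**
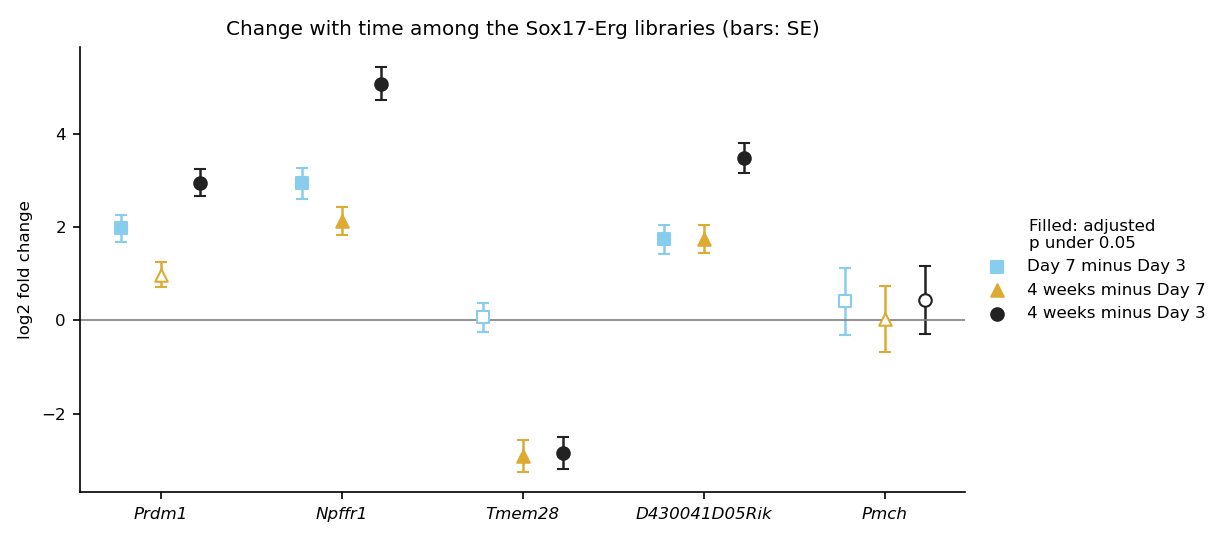
Fitted log2 fold change of each gene between time points of the *Sox17*-*Erg* libraries, with bars of 1 standard error, and filled symbols where the adjusted p was under 0.05. *Npffr1* rises by 5.08 and *Tmem28* falls, at -2.84, from Day 3 to 4 weeks, and the bars of *Pmch* cross 0.

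**Figure D3:**
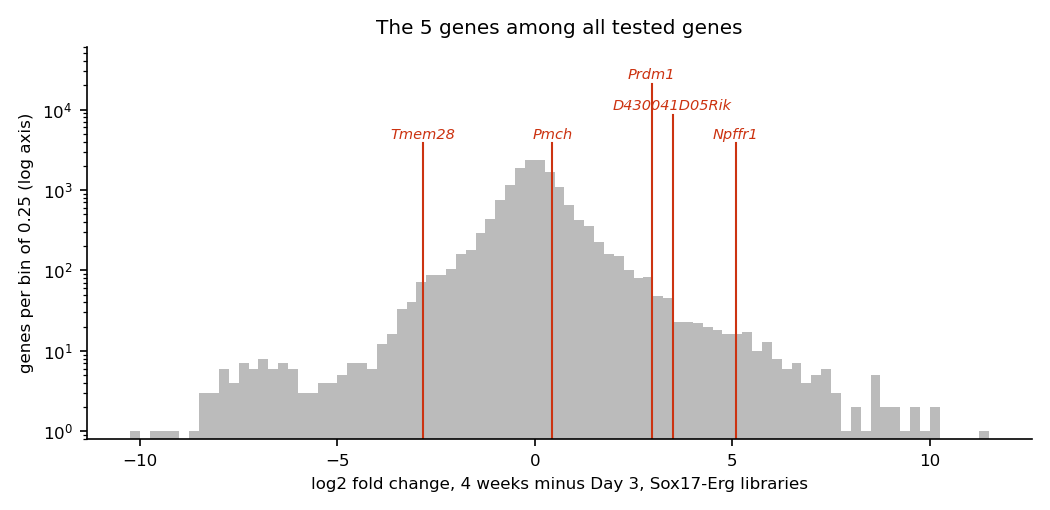
Number of tested genes (log axis) by log2 fold change between 4 weeks and Day 3 within the *Sox17*-*Erg* libraries, in bins of 0.25, with red lines at the 5 genes. *Prdm1*, *D430041D05Rik* and *Npffr1* stand in the right shoulder at 2.96, 3.49 and 5.08, *Tmem28* in the left shoulder at -2.84 and *Pmch* near the middle at 0.44.

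Across the 6 *Sox17*-*Erg* libraries, *Prdm1*, *Npffr1* and *D430041D05Rik* moved together, with Pearson correlations of log2 CPM of 0.97, 0.97 and 0.96. *Tmem28* ran against all 3, at -0.68, -0.79 and -0.79. *Pmch* was at 0.62, 0.45 and 0.58 with the 3 rising genes and at -0.19 with *Tmem28*. These are descriptions over 6 libraries that share 3 time points.

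The related genes of *Prdm1* were described first by its own family. Of 14 other PRDM genes 11 were tested and *Prdm13* was at 0 in all libraries. None passed edgeR's test between *Sox17*-*Erg* and control at Day 3 (3 at an unadjusted p under 0.05, and 1 called by DESeq2), where 7.19% of all tested genes were higher and 5.13% lower. At Day 7, 2 were higher and 1 lower, against 9.48% and 7.93% of all tested genes. At 4 weeks, 3 were higher and 1 lower, against 11.9% and 11%. The family's median log2 fold changes were 0.19, 0.22 and 0.32 at the 3 time points, beside 0.01, 0.01 and -0.01 over all tested genes.

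*Mecom*, which encodes a transcription factor of blood stem cells, also rose in *Sox17*-*Erg* cells. The *Sox17*-*Erg* libraries were at 48.0 and 36.2, 98.0 and 52.5, and 165 and 135 CPM in order of time, and the control libraries between 26.9 and 40.9 CPM. It was higher than control at Day 7 (log2 fold change 1.13, SE 0.29, adjusted p = 0.028) and 4 weeks (2.03, SE 0.30, adjusted p = 0.0015), and rose from Day 3 to 4 weeks within *Sox17*-*Erg* (1.83, SE 0.29, adjusted p = 0.0028). Unlike *Prdm1*, it was well counted in control. Of the calls lower than control, both were *Prdm11*, on Day 7 (-0.90, SE 0.22, adjusted p = 0.023) and after 4 weeks (-0.75, SE 0.22, adjusted p = 0.036). The Day 7 call was lost with only the libraries compared (adjusted p = 0.12), and its value was -0.57 without control replicate 2 of that day. The call of 4 weeks was lost in 6 of the 12 fits that left out a library. *Prdm16* (0.92, SE 0.28, adjusted p = 0.041) and *Prdm9* (0.95, SE 0.26, adjusted p = 0.027) were higher at 4 weeks. The *Prdm16* call was lost with DESeq2 (adjusted p = 0.06), with no filter on low counts (0.16) and with only the libraries compared (0.097). It was also lost with the replicate number as a block (0.05) and in 11 of the 12 fits that left out a library. The *Prdm9* call was lost with no filter (adjusted p = 0.083), with only the libraries compared (0.068) and in 4 of those 12 fits. *Prdm8*, 1 of the 2 called higher at Day 7, held 11 and 5 counts against 0 and 1, and passed the filter on low counts only through the *Sox17*-*Erg* libraries, so its call is a description. *Prdm14*, which acts beside *Prdm1* in germ cells, had at most 1 count in any library.

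The genes of the chromatin partners of Blimp-1 were all counted. Of 9 corepressors and chromatin enzymes, 9 were tested. EdgeR called none lower in *Sox17*-*Erg* than in control, and called 3 higher on Day 3, 1 on Day 7 and 2 after 4 weeks, where 7.19%, 9.48% and 11.9% of all tested genes were called higher. DESeq2 called 4, 3 and 3 of the 9. Among the 9, the Groucho corepressor gene *Tle2*, named after its values were seen, was at 11.1 against 27.2 CPM, 18.97 against 42.9 CPM and 21.3 against 44.1 CPM in order of time and did not pass (log2 fold changes -1.28, -1.18 and -1.05, adjusted p = 0.082, 0.085 and 0.1). Their median log2 fold changes were 0.32, 0.13 and 0.25. At Day 3 the Groucho corepressor genes *Tle1* (0.74, SE 0.14, adjusted p = 0.015) and *Tle4* (0.97, SE 0.25, adjusted p = 0.036) and the histone deacetylase gene *Hdac2* (0.53, SE 0.12, adjusted p = 0.029) were higher. The *Tle4* call was lost with only the libraries compared (adjusted p = 0.083), and its value was 0.51 without *Sox17*-*Erg* Day 3 replicate 1. Leaving out 1 library ended the call of *Tle4* in 8 of 12 fits, of *Hdac2* in 6 and of *Tle1* in 3. *Tle4* was still higher at Day 7 (1.24, SE 0.25, adjusted p = 0.0098). *Hdac2* did not pass at Day 7 (adjusted p = 0.056) and was higher at 4 weeks (0.40, SE 0.12, adjusted p = 0.045). *Tle3* was higher at 4 weeks only (0.42, SE 0.12, adjusted p = 0.033). The *Hdac2* call at 4 weeks was lost with the replicate number as a block (adjusted p = 0.054). None of the 9 was near 0 in control, as *Prdm1* was.

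The genes that Blimp-1 represses or works with in B cells were described next. Of 8 such genes 6 were tested, 1 was higher at Day 3 (against 7.19% of all tested genes), none was called by edgeR at Day 7 (1 at an unadjusted p under 0.05, 0 by DESeq2) and 1 was lower at 4 weeks (against 11% of all tested genes). *Myc*, a growth regulator that Blimp-1 represses in plasma cells, was higher at Day 3 (1.46, SE 0.22, adjusted p = 0.005), at 66.7 and 50.5 CPM against 23.2 and 19.2 in control. Its later *Sox17*-*Erg* libraries were at 23.8 to 35.996 CPM and its later control libraries at 22.2 to 32.1 CPM. Within *Sox17*-*Erg*, *Myc* fell from Day 3 to Day 7 (-1.13, SE 0.21, adjusted p = 0.033), a call lost without any 1 of 6 libraries (both of Control Day 3 and all 4 of *Sox17*-*Erg* Day 3 and Day 7, adjusted p up to 0.19). *Xbp1*, a plasma cell transcription factor gene, was lower than control at 4 weeks (-0.44, SE 0.12, adjusted p = 0.033). That call was lost with no filter on low counts (adjusted p = 0.057) and with only the libraries compared (0.12). Without control replicate 2 of 4 weeks the *Xbp1* value was -0.26. The median log2 fold changes of this list were -0.225, 0.05 and -0.13.

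Apart from *Sdc1*, the markers of cells in which *Prdm1* is best known were scarce. Of 9 B and plasma cell markers, *Mzb1* was at 0 in every library, and *Jchain* and *Tnfrsf17* had at most 3 counts in any library. Their summed level was 39.7 to 64.2 CPM in *Sox17*-*Erg* and 7.89 to 45.9 CPM in control. Only 1 of the 9, *Sdc1*, the syndecan gene that many other cell types also express, had 50 or more counts in any library. It was the 1 call of edgeR among the 2 tested, higher at 4 weeks where 11.9% of all tested genes were (log2 fold change 2.32, SE 0.25, adjusted p = 0.00032), and DESeq2 called 1 of the 2 at Day 7 also. The 4 T cell markers summed to 0.709 to 1.42 CPM against 0.366 to 1.35 CPM, and 1 of the 2 tested was higher at 4 weeks (against the same 11.9%). The 6 primordial germ cell markers were not tested for lack of counts, and summed to 0.106 to 0.439 CPM in *Sox17*-*Erg* and 0.122 to 0.619 CPM in control. The 7 definitive endoderm markers, of a tissue in which *Sox17* is a key regulator, summed to 0.037 to 0.319 CPM against 0.0402 to 0.619 CPM.

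The other genes of the RFamide system were scarce in cells in which the receptor *Npffr1* rose. Of 9 other genes of RFamide peptides and receptors, *Npvf*, *Kiss1* and *Prlhr* were at 0 in all libraries, 2 were tested, and none passed between *Sox17*-*Erg* and control at any time point with edgeR or DESeq2, though both had an unadjusted p under 0.05 in edgeR at Day 3 (0 at Day 7 and 4 weeks). *Npff*, the precursor of the peptide that names the receptor, held 6 and 14, 32 and 18, and 24 and 21 counts in *Sox17*-*Erg* in order of time, and 19 to 46 counts in the control libraries. Its log2 fold changes against control were -0.96 (SE 0.41, adjusted p = 0.15), -0.23 (SE 0.38, adjusted p = 0.72) and -0.39 (SE 0.38, adjusted p = 0.51). *Npffr2*, the other receptor of these peptides, had at most 1 count in any library. At 4 weeks *Npff* was at 0.854 and 0.782 CPM per kilobase, next to 9.76 and 16.2 for *Npffr1*.

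The pore gene of the channel that *Tmem28* is related to rose from Day 3 to 4 weeks in *Sox17*-*Erg* and in control libraries. *Nalcn*, the pore-forming subunit, was at 4.403 and 3.404, 10.1 and 6.63, and 29.6 and 24.8 CPM in *Sox17*-*Erg* in order of time, and rose from Day 3 to 4 weeks (2.80, SE 0.34, adjusted p = 0.0009). The control libraries were at 1.60 and 0.786, 2.42 and 3.30, and 18.9 and 13.8 CPM, and *Nalcn* rose there too (3.75, SE 0.37, adjusted p = 0.00044). *Nalcn* was higher than control at Day 3 (1.68, SE 0.37, adjusted p = 0.021) and Day 7 (1.56, SE 0.33, adjusted p = 0.013) and did not pass at 4 weeks (0.73, SE 0.31, adjusted p = 0.12). Both calls against control were lost without replicate 1 of *Sox17*-*Erg* at that time point (adjusted p = 0.16 and 0.11), and also without control replicate 2 of Day 3 (adjusted p = 0.13) or control replicate 1 of Day 7 (adjusted p = 0.074). The auxiliary subunits were scarce. *Unc79* held 12 to 34 counts in *Sox17*-*Erg* and passed at no time point, *Unc80* at most 3 counts and *Fam155a* at most 1 count in any library. Of the 4 complex genes 2 were tested, and their median log2 fold changes were 0.79, 0.90 and 0.87.

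The receptor of MCH was barely counted. *Mchr1* had 0 counts in 3 of the 6 *Sox17*-*Erg* libraries, at most 9 in any library, and was not tested. Of this receptor and 20 other neuropeptide precursors 4 were tested and *Cartpt* and *Sst* were at 0 in all libraries. None was called at Day 3 by edgeR or DESeq2, nor at an unadjusted p under 0.05 in edgeR, 1 was higher at Day 7 (against 9.48% of all tested genes), and 1 was higher and 1 lower at 4 weeks (against 11.9% and 11%). *Pdyn*, the precursor of dynorphins, was at 0 in all 6 control libraries and held 1 and 1, 10 and 8, and 20 and 38 counts in *Sox17*-*Erg* in order of time. It is the gene called higher at Day 7 and 4 weeks, but it passed the filter on low counts only through the *Sox17*-*Erg* libraries, so these calls are given as a description. *Penk*, the precursor of enkephalins, was lower than control at 4 weeks (-2.84, SE 0.80, adjusted p = 0.031), where the control libraries differed from each other, at 392 and 51 counts, against 28 and 18. Without control replicate 1 of 4 weeks the log2 fold change of *Penk* was -1.32 and the call was lost (adjusted p = 0.31). It was also lost without control replicate 2 of Day 3 (adjusted p = 0.05) or either *Sox17*-*Erg* library of 4 weeks (adjusted p = 0.12 and 0.14). *Hcrt*, *Agrp* and *Npy*, like *Pmch* known from hypothalamic neurons, had at most 1, 6 and 11 counts in any library.

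**Figure D4:**
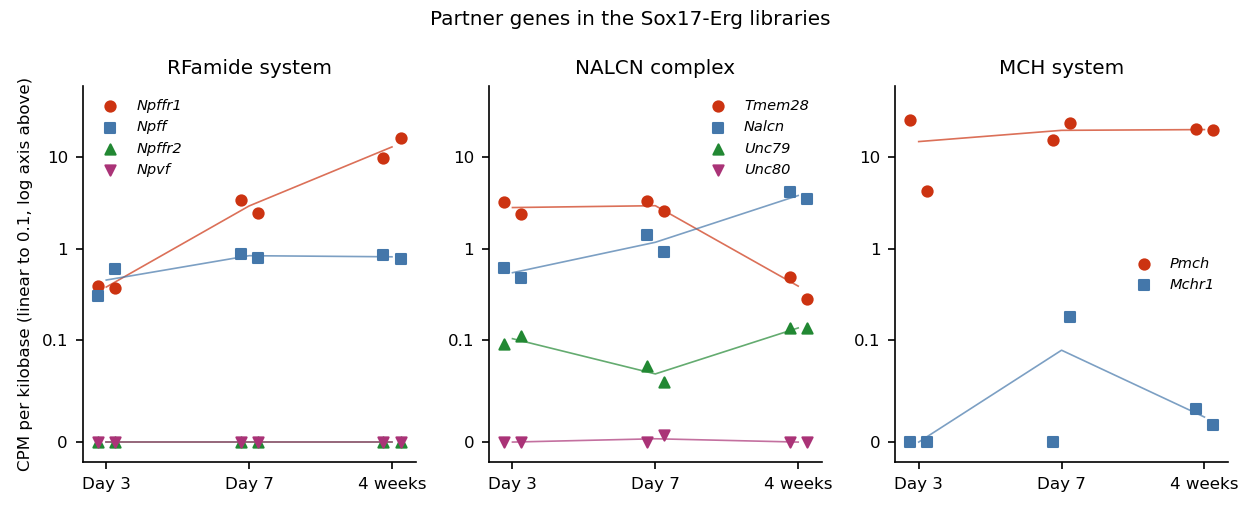
Level in CPM per kilobase of longest transcript in the 6 *Sox17*-*Erg* libraries (linear to 0.1, log axis above) of *Npffr1*, *Tmem28* and *Pmch*, in red, and genes of the same systems, with lines through the means. *Nalcn* climbs to 4.16 and 3.48 as *Tmem28* drops to 0.498 and 0.284, *Npff* is under 1 and *Mchr1* is at 0 to 0.181.

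Because neuropeptide signalling is known from neurons, 19 neuronal markers were examined. They summed to 6.46 to 15.5 CPM in *Sox17*-*Erg* and 5.53 to 16.5 CPM in control, and *Rbfox3*, *Nefl* and *Slc17a6* had at most 3 counts in any library. Of the 8 tested, none was called by edgeR at Day 3 (5 at an unadjusted p under 0.05, and 3 called by DESeq2), 1 was higher and 1 lower at Day 7 (against 9.48% and 7.93% of all tested genes), and 2 were higher and 1 lower at 4 weeks (against 11.9% and 11%). *Gad2*, which encodes an enzyme of GABA synthesis, was at 0.642, 1.93 and 3.86 CPM in *Sox17*-*Erg* in order of time against 0.109, 0.256 and 0.0657 CPM in control. *Syt1*, the gene of a synaptic vesicle calcium sensor, was at 0.0138 to 0.144 CPM on average against 1.03 to 1.39 CPM. *Gad2* passed the filter on low counts only through the *Sox17*-*Erg* libraries and *Syt1* only through the control libraries, so their 4 calls in these counts are a description. *Stmn2*, a gene of growing axons, passed through both and was higher at 4 weeks (2.39, adjusted p = 0.027). The 5 Schwann cell markers summed to 1.81 to 9.48 CPM against 1.93 to 4.42 CPM. *S100b* was lower than control at Day 3 (-2.49, adjusted p = 0.016), and *Foxd3*, a neural crest factor gene that passed the filter only through the *Sox17*-*Erg* libraries, was at 4.29 against 0.0939 CPM at 4 weeks. Macrophage markers were present in both kinds of library, at 58.1 to 403 CPM and 44.3 to 1186 CPM, and none of 6 passed against control with edgeR or DESeq2, or at an unadjusted p under 0.05 in edgeR. The 8 fibroblast markers summed to 10090 to 39098 CPM in *Sox17*-*Erg* and 12479 to 35777 CPM in control. At 4 weeks, where 11% of all tested genes were lower and 11.9% higher, 4 of them were lower (*Pdgfra*, *Dcn*, *Tcf21* and *Lum*, at log2 fold changes of -2.30, -3.31, -2.14 and -3.39) and *Postn* was higher (4.74). The 5 cardiomyocyte markers summed to 319 to 675 CPM against 599 to 1497 CPM in control, and 4 of them were lower at 4 weeks (against the same 11%). These marker genes were named after their values were seen. The magnetic selection named above is for THY1-positive cells, and how far it removed any of these cell types was not tested. The part of these cell types in the levels of the 5 genes was not tested.

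*D630045J12Rik*, the relative of *D430041D05Rik*, was counted in all libraries and passed at no time point. It was at 7.82 to 11.6 CPM in *Sox17*-*Erg*. Against control it was at 0.21 (SE 0.18, adjusted p = 0.47), 0.29 (SE 0.18, adjusted p = 0.30) and 0.45 (SE 0.18, adjusted p = 0.10). Over all 7 lists, 66 genes, 35 were tested and 6 were at 0 in all libraries, and on Day 3 there were 5 calls higher and none lower, on Day 7 there were 5 and 1, and after 4 weeks 6 and 3. The shares over all tested genes were 7.19% and 5.13%, 9.48% and 7.93%, and 11.9% and 11%. Of the 27 calls against control among these lists and the genes next to the 5, 5 were kept with each of the 12 libraries left out in turn: *Mecom*, *Pdyn*, *Parpbp* and *Lrrc20* at 4 weeks and *Eda* at Day 3, the last 3 described below. The *Pdyn* call among them, and the calls of *Pdyn* and *Prdm8* in the counts of the lists, are descriptions for the reason given with those genes. The other 22 were lost without at least 1 library, as were 9 of 13 calls of these genes over time within *Sox17*-*Erg*. The *Mecom* call at Day 7 was lost without replicate 1 of that day in control or *Sox17*-*Erg* (adjusted p = 0.13 and 0.22). That of *Myc* at Day 3 was lost without control replicate 2 or *Sox17*-*Erg* replicate 1 (adjusted p = 0.056 and 0.053). At Day 3 the 5 calls of the lists fell to 0 without either 1 of those libraries, and at Day 7 the 5 calls higher fell to 0 without replicate 1 of either group. At 4 weeks the 6 calls higher fell to 2 without replicate 1 of either group. The 3 lower fell to 0 without control Day 3 replicate 2 or either *Sox17*-*Erg* library of 4 weeks.

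*Pmch* overlaps another gene, and 435 of its 749 exon bases (58.1%) lie over exons of *Parpbp*, a DNA repair gene on the opposite strand. The library kit keeps the strand, but the strand setting of the quantification is not given in the sources used here. The 2 genes differed in profile. Control libraries held 140, 118, 76, 53, 22 and 8 counts of *Parpbp* in order of time and 0 of *Pmch*. In *Sox17*-*Erg* *Parpbp* was at 234 and 251, 239 and 101, and 36 and 60 counts, and fell from Day 3 to 4 weeks (-2.69, SE 0.34, adjusted p = 0.0011), where *Pmch* kept 431 and 399 counts. *Parpbp* was also higher than control at Day 7 (1.13, SE 0.33, adjusted p = 0.044) and 4 weeks (1.94, SE 0.38, adjusted p = 0.0064). The other 4 genes shared at most 0.232% of their 31-base words with any other gene on the same strand. On the opposite strand *D430041D05Rik* shared 3.47% of its words with 489 other genes, and the other 3 at most 0.174%.

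**Figure D5:**
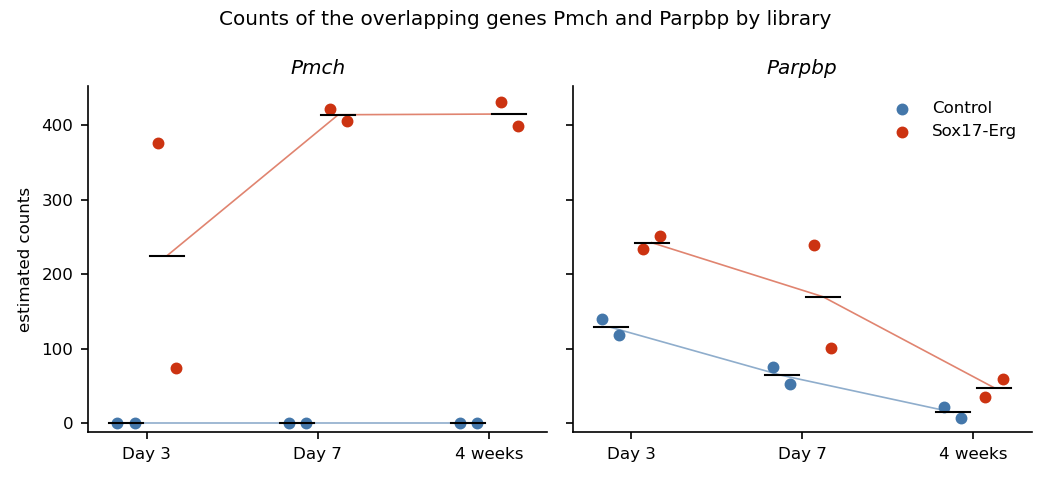
Estimated counts of *Pmch* and of the overlapping gene *Parpbp* in the 12 libraries, control in blue and *Sox17*-*Erg* in red, with the mean of 2 libraries as a black bar. *Pmch* is at 0 in every control library, in which *Parpbp* is at 8 to 140 counts.

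Next to *Npffr1* and *Tmem28* lay genes that were also higher than control. Of 12 overlapping or nearest genes 7 were tested. EdgeR called none lower than control, and called 1 higher on Day 3, 4 on Day 7 and 2 after 4 weeks, beside 7.19%, 9.48% and 11.9% of all tested genes. The 4 calls of Day 7 were all lost without *Sox17*-*Erg* Day 7 replicate 1 (adjusted p from 0.063 to 0.3) and with only the libraries compared. *Lrrc20*, 12700 bases from *Npffr1*, was higher at Day 7 (1.60, SE 0.30, adjusted p = 0.0077) and 4 weeks (2.39, SE 0.31, adjusted p = 0.00082). Unlike *Npffr1* it was counted in control, at 72 to 177 counts, and it did not pass from Day 3 to 4 weeks within *Sox17*-*Erg* (0.36, SE 0.29, adjusted p = 0.38). *Eda*, the ectodysplasin gene 126815 bases from *Tmem28*, was higher at Day 3 (2.24, SE 0.23, adjusted p = 0.00093) and Day 7 (0.94, SE 0.22, adjusted p = 0.019) and did not pass at 4 weeks (-0.25, SE 0.22, adjusted p = 0.45). Like *Tmem28*, it fell from Day 3 to 4 weeks within *Sox17*-*Erg*, at 32.03 and 24.04 CPM at Day 3 and 11.8 and 12.7 CPM at 4 weeks (-1.19, SE 0.22, adjusted p = 0.0049). *Atg5*, next to *Prdm1*, passed at Day 7 (0.41, SE 0.11, adjusted p = 0.036) and at no other time point. *Ppa1*, *Hipk3* and *Nup37* passed at no time point, with *Hipk3* at 178 against 229 CPM at Day 3 (-0.36, adjusted p = 0.085), and the nearest pseudogenes had at most 7 counts in any library.

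The tested genes whose log2 CPM was most like each of the 5 over the 12 libraries were named by the highest Pearson correlations. They were *Fam213a* (0.994), *Pik3r3* (0.993) and *Pdgfb* (0.993) for *Prdm1*, and *Efr3b* (0.989), *Lypla2* (0.987) and *Rgs4* (0.981) for *Npffr1*. *Tmem28* was most like *Lpo* (0.980), *Tmprss5* (0.980) and *Kdr* (0.979), the gene of the main VEGF receptor of endothelium, which went from 74.2 to 57.9 to 30.8 CPM in *Sox17*-*Erg*. *D430041D05Rik* was most like *Sox21* (0.994), *Zfp69* (0.994) and *Mfap3l* (0.992), and *Pmch* was most like *Lpar6* (0.993), *Tbc1d24* (0.988) and the added factor *Sox17* (0.987). The 12 libraries share the split between *Sox17*-*Erg* and control that chose the genes. Over the 6 *Sox17*-*Erg* libraries alone none of these genes was among the 3 most alike.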

How the data were processed

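Bulk RNAseq of 12 libraries was measured in 6 groups, taken from the sample labels. Per the study's methods, libraries were made from Trizol RNA with a stranded Kapa mRNA kit, reads were trimmed for GC content with BBDuk and quantified with Salmon. The submitters' processing notes name bcl2fastq 2.20.0, Salmon, DESeq2 and mm10. The authors deposited estimated counts per gene, written as whole numbers and unscaled. The Salmon version, annotation and strand setting are not given in the sources used here.

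The 5 genes and all gene lists were chosen with earlier results of these data known. Genes were kept with edgeR's filterByExpr (minimum count 10, minimum total 15), which left 15506. Counts were normalized by TMM and fitted over all 12 libraries with 1 mean per group in edgeR 4.0.16 (R 4.3.3), with quasi-likelihood F tests on 6 residual degrees of freedom, Benjamini-Hochberg adjustment over all tested genes and a threshold of 0.05. Fold changes are log2 values fitted by edgeR, and log2 CPM for correlations used a prior count of 2. The script was tested on simulated data. An exact permutation test of 2 against 2 libraries cannot go below p = 0.33 (two-sided), so none was used. Counting intervals are exact conditional intervals at 95%, and a count of 0 was read as at most 3 counts. Alternatives were DESeq2 1.42.0 (Wald test and size factors), other filters, prior counts of 0.5 and 5, a threshold of 0.01, a replicate block, the compared libraries alone, and leaving out each library. Genes named by rule beside the 5 are those called or at 0 in the lists of related genes, overlapping or nearest genes, and the 3 most correlated genes of each. Marker genes and list genes that were not called were named after their values were seen. Positions come from GENCODE M21 (35493 of 35727 genes matched), and promoters from RefSeq. The level of 1 marker gene is not reported here.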

Additional observations from a re-analysis of the deposited data

Results flagged for a closer look

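For genes related to or lying beside the 5, the size of the difference between *Sox17*-*Erg* and control was itself compared between time points, as an interaction in the edgeR fit over all 12 libraries with Benjamini-Hochberg adjustment over all tested genes. For *Myc*, a gene that Blimp-1 represses in plasma cells, the log2 difference from control was 1.46 at Day 3 and 0.03 at 4 weeks, a change of -1.43 (adjusted p = 0.037). For *Eda*, the ectodysplasin gene near *Tmem28*, it was 2.24 at Day 3 and -0.25 at 4 weeks, a change of -2.49 (adjusted p = 0.0056). The other time point pairs did not pass, with adjusted p = 0.21 for both genes between Day 7 and Day 3, and 0.98 for *Myc* and 0.36 for *Eda* between 4 weeks and Day 7. Over all tested genes the difference from control was larger at 4 weeks than at Day 3 for 345 genes and smaller for 153, in signed log2 values. The 5 genes were not put to this test, because their difference from control is what chose them.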

How the results depend on the processing

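Numbers of genes called, out of 15506 tested, moved with the settings. Calls higher and lower from Day 3 to Day 7 were 317 and 214 as reported, 950 and 667 with DESeq2's Wald test, 1107 and 739 with no filter on low counts, 104 and 37 with only the libraries compared, and 11 and 5 with the threshold at 0.01. The step from Day 7 to 4 weeks had 178 and 104 calls as reported, then 584 and 472, 723 and 696, 58 and 33, and 19 and 11 in the same order. From Day 3 to 4 weeks they were 2339 and 2424, and 1124 and 996 under 0.01. Against control, Day 3 gave 1115 and 795, with 304 and 117 under 0.01, and 1272 lower with DESeq2 and 1333 lower with no filter. Day 7 gave 1470 and 1230, with 609 and 479 from only the libraries compared and 691 and 410 under 0.01, and 4 weeks gave 1845 and 1703, with 1080 and 742 under 0.01.

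With each library left out in turn, calls higher ran from 13 to 398 and lower from 4 to 235 (Day 7 against Day 3), from 13 to 190 and 7 to 113 (4 weeks against Day 7), and from 1239 to 2646 and 807 to 2433 (4 weeks against Day 3). Against control they ran from 201 to 1104 and 66 to 1001 (Day 3), 623 to 1371 and 297 to 1292 (Day 7), and 1049 to 1885 and 648 to 1710 (4 weeks).

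For the 5 genes, the threshold of 0.01 ended the Day 7 against Day 3 calls of *Prdm1* (1.98), *Npffr1* (2.94) and *D430041D05Rik* (1.74), and the 4 weeks against Day 7 calls of *Npffr1* (2.14), *Tmem28* (-2.91) and *D430041D05Rik* (1.74). With only the *Sox17*-*Erg* libraries, *D430041D05Rik* lost both (1.76, adjusted p = 0.061, and 1.74, adjusted p = 0.068). *Prdm1* gained a 4 weeks against Day 7 call with DESeq2 (0.998, adjusted p = 0.034) and with no filter (0.98, adjusted p = 0.0033). With a library left out, Day 7 against Day 3 ran from 1.60 to 2.52 for *Prdm1*, 2.69 to 3.19 for *Npffr1*, -0.14 to 0.35 for *Tmem28*, 1.40 to 2.22 for *D430041D05Rik* and -0.37 to 2.25 for *Pmch*. For 4 weeks against Day 7 the ranges were 0.87 to 1.12, 1.71 to 2.47, -3.37 to -2.59, 1.46 to 1.96 and -0.25 to 0.39, and for 4 weeks against Day 3 they were 2.58 to 3.52, 4.67 to 5.45, -3.26 to -2.50, 3.15 to 3.98 and -0.34 to 2.29. The sign of *Tmem28* (-0.14) turned without *Sox17*-*Erg* Day 3 replicate 2 or Day 7 replicate 1. That of *Pmch* turned without Day 3 replicate 2 or, for 4 weeks against Day 7, without Day 7 replicate 1. None of these was a call. The cause of these changes was not tested.

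Calls in the lists of related genes, reported as 5 higher and 0 lower on Day 3, 5 and 1 on Day 7 and 6 and 3 after 4 weeks, moved too. Higher at Day 3 were 3 with only the libraries compared and 1 under 0.01, and lower were 2 with DESeq2, 3 with no filter, 2 with only the libraries compared and 1 with the block. Higher at Day 7 were 3 at a minimum count of 50, 1 with only the libraries compared and 1 under 0.01, and lower were 3 with DESeq2, 4 with no filter and 0 with the other two. At 4 weeks 3 were higher with no filter, 3 with only the libraries compared and 2 under 0.01, and 5, 5 and 0 were lower with DESeq2, with no filter and under 0.01. With a library left out, the counts ran from 0 to 5 higher and 0 to 1 lower on Day 3, 0 to 5 and 0 to 3 on Day 7, and 2 to 5 and 0 to 4 after 4 weeks.

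Replicate numbers, with 2 a group and no shared origin in the labels, were not taken to pair the samples. The correlation of the deviations of same-numbered libraries was 0.19, 0.30 and 0.17 between *Sox17*-*Erg* and control, 0.22 between Day 3 and Day 7 of *Sox17*-*Erg*, and -0.05 between 4 weeks and each of these. With the replicate block the calls from Day 3 to Day 7 were 460 higher and 323 lower, the block turned *Pmch* from Day 7 to 4 weeks to -0.028, and it changed no call of the 5 genes. Of the other genes named in the lists, it ended the calls against control of *Prdm16* (0.92) and *Hdac2* (0.40) at 4 weeks and the rise of *Prdm16* from Day 7 to 4 weeks (1.39, adjusted p = 0.052). DESeq2's size factors and the other prior counts changed no call of the 5 genes. With 2 libraries a group, the spread between replicates is poorly known, which limits the precision of every value.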

Other observations

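The limits that the 5 genes kept, at most 7 counts in every control library and at least 27 counts in every *Sox17*-*Erg* library, were also kept by 10 other genes of the table. They were found after their values were seen, so no test against control is given, and the change over time comes from the same edgeR fit as in the report. *Sost*, which encodes the bone Wnt inhibitor sclerostin, had 0 counts in all control libraries and mean levels of 4.39, 34.7 and 26.5 CPM at Day 3, Day 7 and 4 weeks (4 weeks against Day 3 log2 fold change 2.60, adjusted p = 0.009). *Tmem200c*, a membrane protein gene, was at 5.76, 40.4 and 42.5 CPM (2.89, adjusted p = 0.0017), and *Sox21*, a neural SOX factor gene, at 3.32, 11.3 and 26.3 CPM (3.00, adjusted p = 0.011).

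*Rgs8*, a regulator of G protein signalling, went the way of *Tmem28*, at 10.02, 9.64 and 2.69 CPM (-1.89, adjusted p = 0.015), as did *Tmprss5*, a membrane serine protease gene, at 9.89, 6.89 and 2.86 CPM (-1.79, adjusted p = 0.017). *Cnksr2*, a scaffold gene of synapses, was at 1.95, 2.08 and 7.15 CPM (1.87, adjusted p = 0.012). *Gna14*, the gene of a G protein alpha subunit, did not pass, at 17.0, 19.02 and 10.7 CPM (-0.66, adjusted p = 0.18), nor did *Fam163a*, *S100g* and *Shisa8*, whose mean levels ran from 1.96 to 7.59 CPM.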
